A study of Homo sapiens with 20 samples.

Results

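The genes described here are the collagen chains, the laminin chains and 6 further extracellular matrix genes of human HEK293 cells. They were taken by a rule on gene names that uses no measured value, though the set was proposed with earlier results of these data known: protein-coding genes whose symbol is that of a collagen chain (44 genes) or a laminin chain (12 genes), together with PXDN, FN1, SPARC, NID1, NID2 and HSPG2. That gave 62 genes of the 57087 with transcripts in the abundance tables. By class they were 12 laminin chains, 11 fibrillar, 10 FACIT, 6 type IV, 5 type VI, 4 transmembrane and 2 multiplexin collagen chains, 6 other collagen chains and the 6 further genes. The 62 genes are called matrix genes in what follows.

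Collagens are triple helices of 3 alpha chains, each chain encoded by its own gene. Fibrillar collagens build the fibres of connective tissue, FACIT collagens sit on the surface of those fibres, and type IV collagen forms the sheet-like network of basement membranes. Laminins are heterotrimers of an alpha, a beta and a gamma chain and form the other network of the basement membrane. Nidogens (NID1, NID2) and the proteoglycan perlecan (HSPG2) link the networks, and peroxidasin (PXDN) makes the sulfilimine bonds that crosslink type IV collagen. Fibronectin (FN1) is a glycoprotein bound by integrins, and SPARC is a secreted protein that binds collagen. HEK293 is a human embryonic kidney line, and Dicer, Drosha and Ago2 are the RNases and the Argonaute protein through which microRNAs are made and act.

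In mRNA-seq (RNA of whole cells), 3 samples of wild-type cells labelled HEK293T (wt) were set against 3 samples of cells labelled HEK293 2B that carry a doxycycline-inducible short hairpin RNA against DICER1 (shDicer). Both groups had received 3 µg/ml doxycycline for 7 days. In chrRNA-seq (RNA of the chromatin fraction), every sample was labelled HEK293, and 2 wt samples were set against 2 shDicer and 2 shAgo2 samples, from inducible lines given 3 µg/ml doxycycline for 72 h, and against 2 samples transfected with plasmids carrying a hairpin against DROSHA (DroshaKD). Whether the chrRNA-seq wt samples had received doxycycline or an empty plasmid is not given in the sources used here. The study's methods describe the inducible lines as HEK293T-REx cells with an integrated cassette, 1 of them a clone that also makes tagged Dicer, so the wt and knockdown samples differ in cell line as well as in the hairpin, and line and knockdown cannot be told apart in any shDicer or shAgo2 comparison. Nothing says that the replicates came from separate cultures, so p-values measure the spread between these samples, which may be technical.

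The libraries held 10216430 to 17215978 estimated counts in mRNA-seq and 17484067 to 21553760 in chrRNA-seq, so that 3 counts amounted to 0.174 to 0.294 and 0.139 to 0.172 CPM (counts scaled to the library total). As a check of the labels, DICER1 was at 252, 257 and 232 CPM in the mRNA-seq wt samples and at 80.6, 94.4 and 88.3 CPM in shDicer (log2 fold change -1.49 ± 0.08, adjusted p = 1.28e-07). The value after ± on a log2 fold change is its standard error. On chromatin DICER1 was at 119 and 124 CPM in wt and 107 and 108 CPM in shDicer, a difference that did not pass the test (log2 fold change -0.18 ± 0.09). AGO2 fell in shAgo2 chromatin, from 239.8 and 255 to 162 and 159.6 CPM (log2 fold change -0.62 ± 0.08, adjusted p = 9.29e-05), a call lost under 1 of 15 changes of the processing. DROSHA stood at 146 and 153 CPM in wt and 166 and 148 CPM in DroshaKD chromatin, with the groups overlapping. Set against wt, the chromatin values therefore do not check the labels shDicer and DroshaKD. In the direct comparison DICER1 was called lower in shDicer than in shAgo2 chromatin, a call lost under 2 of 15 changes of the processing. DICER1 was also called higher in shAgo2 than in wt, a call lost under 1 of 15. The study reports western blots of the Dicer, Drosha and Ago2 knockdowns, and PCR of these transcripts in its chrRNA-seq samples. Those values were not used here, so the directions given for these samples rest on the labels and on the study's own assays.

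Of 7 genes listed as markers of HEK293 cells, 6 were tested in mRNA-seq, with 3 called higher and 2 lower in shDicer, and on chromatin all 7 were tested, with 4 higher and 3 lower in shDicer, 2 and 3 in shAgo2, and 0 and 3 in DroshaKD. Beside these and the marker counts below, 15.6% of all genes were higher and 14.2% lower in mRNA-seq. On chromatin these shares were 11.0% and 10.5% in shDicer, 12.5% and 12.1% in shAgo2, and 1.19% and 2.18% in DroshaKD. NEFL rose and NEFM fell most in mRNA-seq (log2 fold changes 4.77 ± 0.36 and -3.94 ± 0.28, both called), and the summed level of the 7 was 127 to 159.5 TPM, a level per transcript length, in wt and 167 to 220.1 in shDicer. On chromatin that sum was 232 to 239 TPM in wt, 152 to 176 in shDicer, 159.9 to 170.5 in shAgo2 and 148 to 152 in DroshaKD. The 7 fibroblast markers summed to 6.201 to 6.84 TPM in wt and 13.6 to 15.2 in shDicer mRNA-seq, with 6 of the 7 under 1 TPM in every mRNA-seq sample, FAP and DPT at 0, and PDPN the exception. On chromatin the fibroblast sum was 21.4 TPM in both wt samples, 31.9 to 33.8 in shDicer, 28.4 to 29.4 in shAgo2 and 17.9 to 22.04 in DroshaKD. Single fibroblast markers went both ways there: of 5 tested, 1 was called higher and 1 lower in shDicer (median log2 fold change -0.59, 3 with every sample below wt), and 2 higher and 2 lower in shAgo2 (median 0.03). In mRNA-seq the endothelial markers summed to under 1 TPM, as did the leukocyte markers, and the keratinocyte markers to 5.25 to 6.595 TPM in wt and 2.82 to 3.94 in shDicer. On chromatin the leukocyte sum was 5.27 to 6.39 TPM in wt, 2.23 to 2.88 in shDicer, 2.504 to 2.77 in shAgo2 and 4.79 to 5.99 in DroshaKD, and of 5 leukocyte markers tested 1 was called lower in shDicer and 2 in shAgo2. The endothelial sum was 8.71 to 10.2 TPM in wt, 8.104 to 11.04 in shDicer, 7.43 to 9.63 in shAgo2 and 7.56 to 11.4 in DroshaKD, and of 7 tested 1 was higher and 1 lower in shDicer and 1 lower in shAgo2. The keratinocyte sum was 3.91 to 4.97 TPM in wt, 5.04 to 5.35 in shDicer, 4.68 to 5.69 in shAgo2 and 4.104 to 5.69 in DroshaKD. The part of these differences in the results for the matrix genes was not tested.

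In mRNA-seq, 41 of the 62 matrix genes had enough counts to be tested, and 14 of them were higher and 5 lower in shDicer than in wt (edgeR quasi-likelihood test, Benjamini-Hochberg adjusted p under 0.001). Over all 15090 genes tested, 15.6% were called higher and 14.2% lower. The median log2 fold change was 0.83 over the 41 matrix genes and 0.01 over all genes. On chromatin 58 matrix genes were tested, among 32874 genes. Against wt, 20 were higher and 7 lower in shDicer (adjusted p under 0.005, where 11.0% and 10.5% of all genes were), with a median of 0.23. In shAgo2, 16 were higher and 10 lower (12.5% and 12.1% of all genes at the same threshold), with a median of 0.31. In DroshaKD 2 were higher and 4 lower (adjusted p under 0.05, 1.19% and 2.18% of all genes), with a median of -0.02. The shDicer, shAgo2 and DroshaKD comparisons on chromatin share the same 2 wt samples. Without wt replicate 1, 0 matrix genes were called in DroshaKD in either direction, and without DroshaKD replicate 1, 9 were lower. In mRNA-seq, 2 matrix genes were called lower without wt replicate 1. The medians over all genes on chromatin were between 0.00 and 0.01. The shares of all genes given here include non-coding genes. Among genes with an annotated 3′ untranslated region, without and with the sequence match described below, 13.9% and 17.03% were higher in shDicer chromatin. The shares lower there were 16.85% and 17.97%. In shAgo2, 15.5% and 18.7% were higher, and 18.7% and 19.7% lower. Beside these shares, lower calls were not more frequent among the 58 matrix genes. In a bulk sample, fewer cells with an RNA and less of that RNA in each cell cannot be told apart.

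Counted by separation of the samples alone, 24 of the 41 matrix genes had every shDicer sample above wt in mRNA-seq and 8 every one below, where 32.8% and 31.6% of all genes tested did. Of the 58 on chromatin, 30 lay above and 14 below wt in shDicer (34.7% and 33.9% of all genes), 30 and 17 in shAgo2 (36.8% and 36.0%), and 15 and 20 in DroshaKD (24.5% and 24.6%). Against shAgo2, 21 lay higher and 14 lower in shDicer (26.0% and 26.3%).

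**Figure D1:**
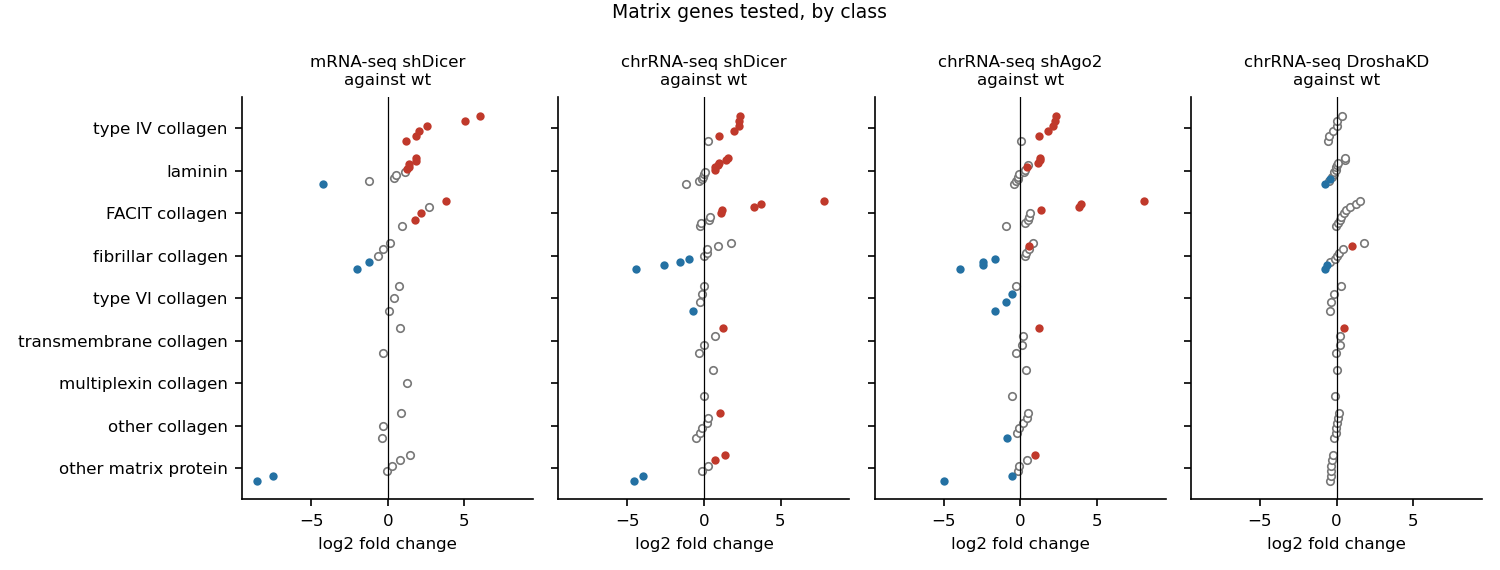
Log2 fold change (x axis) of each matrix gene tested, by class (rows), in 4 comparisons (panels). Red and blue points passed the test as higher and lower, and open points did not: all 6 type IV chains are red in the first panel, and 5 of 6 in the second and the third.

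Levels between genes were compared per transcript length, in TPM. LAMC1, the laminin gamma 1 chain, had the highest level of the matrix genes in wt, at 22.6 ± 7.61 TPM in mRNA-seq (SD, n = 3) and 50.2 ± 0.234 TPM on chromatin (SD, n = 2). In wt mRNA-seq it was followed by SPARC (15.8 ± 0.881 TPM), LAMB2 (4.85 ± 2.84 TPM) and LAMB1 (4.84 ± 0.373 TPM), and the means of LAMB2 and LAMB1 lie within each other's spread. In shDicer mRNA-seq the order after LAMC1 (24.5 ± 8.18 TPM) was LAMB1 (14.5 ± 3.71 TPM), COL14A1 (10.6 ± 1.46 TPM) and COL4A5 (10.4 ± 2.58 TPM). On wt chromatin LAMC1 was followed by COL4A2 (44.4 ± 0.262 TPM), COL27A1 (40.7 ± 4.97 TPM) and LAMB2 (39.3 ± 2.93 TPM). The main fibre collagens of connective tissue, COL1A1, COL1A2 and COL3A1, were at most at 1.097 CPM in every mRNA-seq sample. Summed over the 62 genes, the level was 544 to 690.2 CPM in wt and 1133 to 1321 CPM in shDicer mRNA-seq. The summed TPM overlapped there, at 80.7, 81.9 and 107.3 in wt and 106.4, 105.6 and 148.5 in shDicer. On chromatin the summed TPM was 608 to 636 in wt, 826 to 846 in shDicer, 764 to 825 in shAgo2 and 518 to 573 in DroshaKD. The summed level on chromatin was 2998 to 3116 CPM in wt, 4140.0 to 5070 in shDicer, 4076 to 4395 in shAgo2 and 2308 to 2697 in DroshaKD. Transcripts annotated as protein-coding held 87.2% to 88.8% of these counts in wt and 94.2% to 94.8% in shDicer mRNA-seq, and 75.4% to 86.5% on chromatin.

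All 6 type IV collagen chains rose in shDicer mRNA-seq, where 15.6% of all genes tested were higher. COL4A3 and COL4A4, whose chains join COL4A5 in the network of the kidney glomerulus, were near the detection limit in wt: COL4A3 was at 0.0811, 0.356 and 0.205 CPM in wt and 14.6, 13.3 and 15.97 CPM in shDicer, and COL4A4 at 0.811, 0.356 and 0.614 CPM in wt and 20.2, 19.1 and 22.4 CPM in shDicer. For both, the shDicer samples all lay above the wt samples (log2 fold change 6.06 ± 0.29, adjusted p = 5.47e-08 for COL4A3, and log2 fold change 5.08 ± 0.22, adjusted p = 3e-08 for COL4A4). COL4A3 rested on 7 reads over the 3 wt samples, and the ratio of pooled counts was 70.1 (95% exact interval 33.8 to 175), which covers counting error only.

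COL4A5 was at 19.5, 21.1 and 29.1 CPM in wt and 88.9, 96.9 and 96.4 CPM in shDicer mRNA-seq (log2 fold change 2.03 ± 0.13, adjusted p = 4.84e-07), and COL4A6 at 8.92, 6.67 and 9.11 CPM in wt and 51.1, 46.9 and 47.8 CPM in shDicer (log2 fold change 2.56 ± 0.13, adjusted p = 8.37e-08). COL4A1, with COL4A2 the chain of the ubiquitous type IV network, was at 26.5, 25.5 and 26.8 CPM in wt and 101, 86.9 and 90.7 CPM in shDicer (log2 fold change 1.82 ± 0.09, adjusted p = 5.93e-08). For each of these genes the groups did not overlap. COL4A2 was at 24.7, 24.8 and 30.4 CPM in wt and 77.6, 47.4 and 55.4 CPM in shDicer (log2 fold change 1.18 ± 0.17, adjusted p = 0.00015). The COL4A2 call was lost under 4 of 16 alternatives (adjusted p = 0.00298 without wt replicate 1), 1 of them the median change of the 50 nearest tested genes taken as an offset, while the calls of the other 5 chains held under all 16. An alternative is 1 change in the processing, such as another normalization or 1 library left out.

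On chromatin, where COL4A3 and COL4A4 stood well above the detection limit in wt, 5 of the 6 chains rose in shDicer and in shAgo2, beside 11.0% and 12.5% of all genes. COL4A3 was at 9.61 and 10.2 CPM in wt, 44.7 and 50.6 in shDicer and 50.01 and 44.7 in shAgo2, and COL4A4 at 21.2 and 20.02 CPM in wt, 94.04 and 110.2 in shDicer and 95.5 and 88.8 in shAgo2. Both knockdowns lay above wt, by log2 fold changes of 2.27 ± 0.12 and 2.26 ± 0.12 for COL4A3 (adjusted p = 5.22e-08 and 4.41e-08, edgeR) and 2.31 ± 0.10 and 2.16 ± 0.10 for COL4A4. COL4A5 rose from 52.8 and 58.9 CPM to 193 and 239.8 in shDicer and 194 and 193 in shAgo2 (log2 fold changes 1.95 ± 0.12 and 1.79 ± 0.12). COL4A6 rose from 21.5 and 25.4 CPM to 98.3 and 142 in shDicer and 118 and 117 in shAgo2 (2.36 ± 0.22 and 2.32 ± 0.22). COL4A1 rose from 76.97 and 78.2 CPM to 134 and 179 in shDicer and 192 and 176 in shAgo2 (1.01 ± 0.17, adjusted p = 0.000548, and 1.24 ± 0.17, adjusted p = 0.000103, edgeR), and its call in shDicer was lost under 2 of 15 alternatives (adjusted p = 0.00938 without wt replicate 1 and 0.00820 without wt replicate 2).

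COL4A2, unlike its partner, was not called on chromatin. It was at 233 and 234 CPM in wt, 249.5 and 308 in shDicer and 251 and 222 in shAgo2, and neither difference passed the test (log2 fold changes 0.26 ± 0.13 and 0.02 ± 0.13, with 95% intervals of -0.004698 to 0.52 and -0.24 to 0.28). In TPM both knockdowns lay above wt for COL4A2, at 44.2 and 44.6 in wt, 61.9 and 65.8 in shDicer and 55.1 and 54.8 in shAgo2. The COL4A2 difference in shDicer was called under 1 of 15 alternatives. The difference between the changes of COL4A1 and COL4A2 was not tested. In DroshaKD no type IV chain was called by edgeR (3 had an unadjusted p under 0.05, and DESeq2 called 1), with log2 fold changes of -0.54 to 0.39: COL4A3 was at 14.05 and 11.9 CPM, COL4A4 at 18.5 and 16.8 and COL4A5 at 61.9 and 50.2. COL4A2 was lowest relative to wt there, at 185 and 137 CPM (log2 fold change -0.54 ± 0.14, adjusted p = 0.0531, edgeR), and was called under 6 of 16 alternatives. Between shDicer and shAgo2 no type IV chain passed the test in edgeR or DESeq2, and 0 had an unadjusted p under 0.05, with log2 differences of -0.23 to 0.24.

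**Figure D2:**
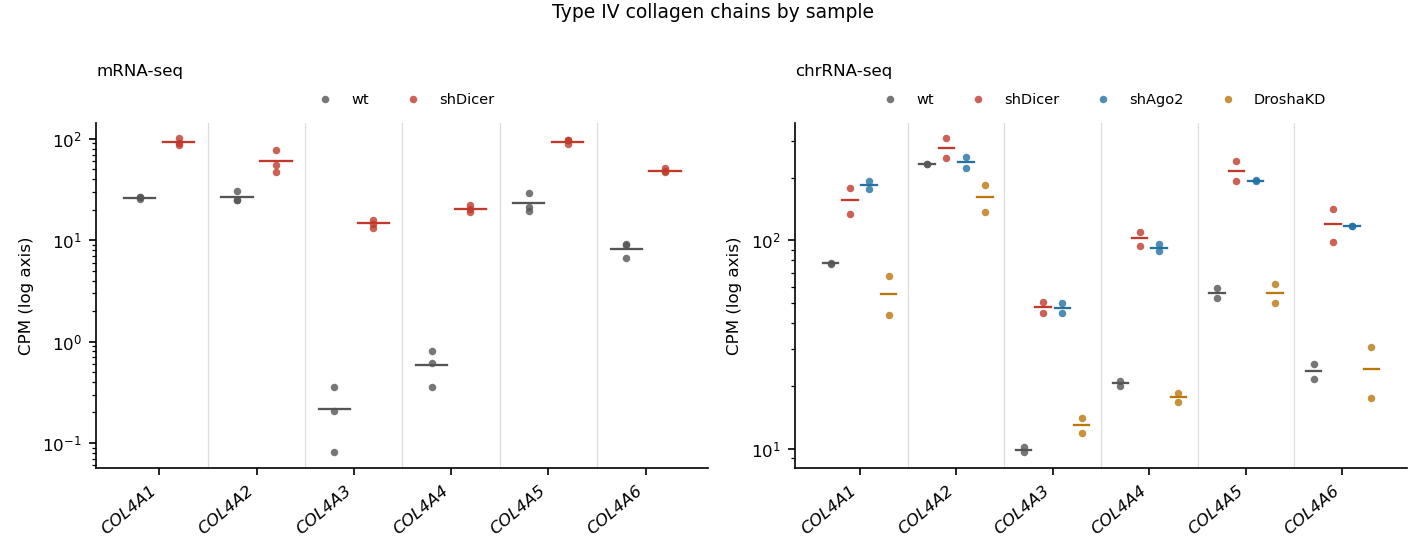
Level of the 6 type IV collagen chains in CPM (log axis) in each mRNA-seq sample (left) and chrRNA-seq sample (right). Points are samples and bars are group means: shDicer lies above wt for all 6 chains on the left, and shDicer and shAgo2 lie above wt and DroshaKD for all chains but COL4A2 on the right.

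The type IV genes are arranged in 3 pairs that are read away from each other from neighbouring start sites. In the GENCODE annotation of GRCh38, the start sites of the canonical transcripts of COL4A1 (chr13:110148963-110307157) and COL4A2 (chr13:110305812-110513209) lie 127 bases apart, those of COL4A3 (chr2:227164624-227314792) and COL4A4 (chr2:227002714-227164453) 419 bases apart, and those of COL4A5 (chrX:108439838-108697545) and COL4A6 (chrX:108155607-108439497) 1416 bases apart. On chromatin both members of the second and of the third pair were called in shDicer and shAgo2, and of the first pair COL4A1 alone. The median log2 fold change of the 50 nearest tested genes was 0.48 around COL4A1, -0.11 around COL4A3 and -0.43 around COL4A5 in mRNA-seq, so the changes of the 3 loci were larger than those of their neighbourhoods. On chromatin these medians were between -0.14 and 0.17 around the 6 genes in shDicer and shAgo2.

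MicroRNAs of the miR-29 family are known to bind the messages of many collagens, and their maturation passes through Drosha and Dicer. The small RNA libraries were not analysed here, so the miR-29 level was not measured. The mature sequences, from RefSeq (GRCh38.p14), are shown because they share the seed (bases 2 to 8, in capitals) that was searched for in the 3′ untranslated regions (3′ UTRs) of the matrix genes:
hsa-miR-29a-3p: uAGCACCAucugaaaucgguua
hsa-miR-29b-3p: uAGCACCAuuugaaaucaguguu
hsa-miR-29c-3p: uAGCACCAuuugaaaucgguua

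A match to the seed (TGGTGCT on the message strand) was present in the 3′ UTR of the canonical transcript of 35 of the 62 matrix genes (56.5%), against 2742 of 19559 genes in all (14.02%). Per kilobase of 3′ UTR, the matrix genes held 0.558 matches and all genes 0.0962. All 6 type IV chains held one, as did 10 of the 11 fibrillar chains, 28 of the 44 collagens and 3 of the 12 laminins. The first match after the stop codon is shown, in 30 bases of the GRCh38 genome read along the gene, for the type IV chains, which rose, and for 4 matrix genes that fell in shDicer mRNA-seq, with the bases that pair with the seed in capitals:
COL4A1, chr13:110150315-110150344, minus strand: atgtcacaacaTGGTGCTacttcttcttct
COL4A2, chr13:110512208-110512237, plus strand: aagggccatttTGGTGCTtattcttaactt
COL4A3, chr2:227313532-227313561, plus strand: ggtggagttggTGGTGCTgatatttaaatt
COL4A4, chr2:227007225-227007254, minus strand: aagagatgtcaTGGTGCTcattttggactc
COL4A5, chrX:108696473-108696502, plus strand: gctgccgtcaaTGGTGCTactatatatgat
COL4A6, chrX:108156760-108156789, minus strand: ttctgtcaagcTGGTGCTactgtttgattt
COL2A1, chr12:47973028-47973057, minus strand: gtcctacacaaTGGTGCTattctgtgtcaa
COL5A2, chr2:189032862-189032891, minus strand: tcctttaatgaTGGTGCTaaaattcttcct
PXDN, chr2:1634058-1634087, minus strand: caacgtccagcTGGTGCTgttacagaaggc
SPARC, chr5:151661366-151661395, minus strand: attggcccattTGGTGCTggccatttgagg

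Among the matrix genes tested in mRNA-seq, 8 of the 25 with a match were higher and 5 lower in shDicer (median log2 fold change 0.12), and of the 16 without a match 6 were higher and 0 lower (median 1.17). Over all genes with an annotated 3′ UTR, 16.4% of those with a match were higher and 16.7% lower, against 17.1% and 15.1% of those without. On chromatin, 10 of the 32 matrix genes with a match were higher and 6 lower in shDicer (median 0.19), against 10 and 1 of the 26 without (median 0.32). In shAgo2, 11 with a match were higher and 8 lower (median 0.32), against 5 and 2 without (median 0.27), and in DroshaKD 1 and 3 against 1 and 1. With a match, 17.03% of all genes with an annotated 3′ UTR were higher and 17.97% lower in shDicer chromatin. These shares were 18.7% and 19.7% in shAgo2, and 2.28% and 4.04% in DroshaKD. Without a match they were 13.9% and 16.85% in shDicer chromatin, 15.5% and 18.7% in shAgo2, and 1.46% and 3.97% in DroshaKD. All 5 matrix genes that fell, PXDN, SPARC, COL2A1, COL5A2 and LAMA2, carried a match, as did the 6 type IV chains, which rose. A match is a stretch of letters and not a measured binding site.

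Laminin chains rose in shDicer mRNA-seq in 5 of the 10 tested and fell in 1, where 15.6% of all genes were higher and 14.2% lower. LAMB1, the beta 1 chain found in most embryonic laminins, was at 41.1, 40.8 and 46.7 CPM in wt and 144, 149.8 and 175 CPM in shDicer (log2 fold change 1.87 ± 0.10, adjusted p = 8.38e-08). LAMA4, the alpha chain of vascular basement membranes, was at 15.3, 15.6 and 15.3 CPM in wt and 51.01, 56.4 and 57.998 CPM in shDicer (log2 fold change 1.84 ± 0.10, adjusted p = 1.24e-07). LAMA1, the alpha chain of the early embryo and kidney, was at 11.997, 13.1 and 17.8 CPM in wt and 32.8, 31.6 and 36.96 CPM in shDicer (log2 fold change 1.25 ± 0.15, adjusted p = 3.76e-05). In these 3 genes every shDicer sample lay above every wt sample.

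LAMA3, an alpha chain of epithelial laminins, was at 16.5, 15.4 and 22.01 CPM in wt and 42.9, 44.9 and 50.5 CPM in shDicer mRNA-seq (log2 fold change 1.37 ± 0.14, adjusted p = 1.2e-05), and LAMB2, the beta chain of the glomerulus and the neuromuscular junction, at 14.02, 14.1 and 16.6 CPM in wt and 44.1, 33.4 and 37.02 CPM in shDicer (log2 fold change 1.36 ± 0.13, adjusted p = 8.79e-06). The LAMB2 call was lost under 1 of 16 alternatives. In TPM the LAMB2 groups overlapped, at 2.11, 4.65 and 7.78 in wt and 6.88, 6.05 and 10.8 in shDicer mRNA-seq. LAMA2, the alpha chain of muscle, fell from 1.13, 1.87 and 1.33 CPM to 0, 0 and 0.179 CPM (log2 fold change -4.19 ± 0.67, adjusted p = 0.000314). The shDicer samples held 3 LAMA2 reads in all, the ratio of pooled counts was 20.5 (95% exact interval 6.62 to 103), and the call was lost under 7 of 15 alternatives (adjusted p of 0.00138 to 0.00197 with any 1 of 5 libraries left out). LAMC1, the partner of most of these chains, stood at 157, 154 and 219 CPM in wt and 199, 212 and 293 CPM in shDicer, and the groups overlapped (log2 fold change 0.41 ± 0.16, adjusted p = 0.0473, edgeR). LAMC1 was called higher under 3 of 16 alternatives, 1 of them the looser threshold of adjusted p under 0.05. LAMC3 and LAMA5 did not pass the test (log2 fold changes 0.56 ± 0.28 and 1.098 ± 0.43).

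On chromatin all 12 laminin chains were tested, and 6 rose in shDicer, 4 rose in shAgo2 and none of the 12 passed the test as lower in either (2 and 1 with an unadjusted p under 0.05, 0 by DESeq2). Over all genes, 11.0% were higher and 10.5% lower in shDicer, and 12.5% and 12.1% in shAgo2. LAMB1 was at 132 and 139 CPM in wt, 350.5 and 437 in shDicer and 339.7 and 313 in shAgo2 (log2 fold changes 1.54 ± 0.13 and 1.27 ± 0.13). LAMA4 was at 33.3 and 38.02 CPM in wt, 88.4 and 106 in shDicer and 93.7 and 81.8 in shAgo2 (1.45 ± 0.11 and 1.301 ± 0.11), and LAMC1 at 280.5 and 322 CPM in wt, 499 and 651 in shDicer and 704 and 618 in shAgo2 (0.93 ± 0.14 and 1.13 ± 0.14). In each of the 3 genes both knockdowns lay above wt, and of the shDicer calls that of LAMC1 was lost under 1 of 15 alternatives (adjusted p = 0.00639 without wt replicate 1). LAMA3 rose by smaller amounts, from 190.1 and 188 CPM to 294 and 333 in shDicer and 264 and 256 in shAgo2 (0.73 ± 0.08 and 0.46 ± 0.08). The LAMA3 call in shAgo2 was lost under 4 of 15 alternatives (adjusted p of 0.008902 to 0.0141 with any 1 of 4 libraries left out).

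LAMA1 and LAMA5 were called in shDicer chromatin and not in shAgo2. LAMA1 was at 95.5 and 103 CPM in wt, 162 and 232 in shDicer and 149 and 133 in shAgo2 (log2 fold changes 0.99 ± 0.15 and 0.51 ± 0.15). The 50 nearest tested genes had a median of 0.703 around LAMA1 in mRNA-seq and 0.62 in shDicer chromatin, and the LAMA1 calls were lost in both when that median was taken as an offset, and on chromatin also without wt replicate 1 (adjusted p = 0.00719). LAMA5, the most widespread alpha chain of adult tissue, was at 120.1 and 117 CPM in wt, 187 and 209 in shDicer and 150.4 and 128 in shAgo2 (0.74 ± 0.09 and 0.23 ± 0.09). LAMB2, which had risen in mRNA-seq, was at 132 and 129 CPM in wt and 114 and 124 in shDicer chromatin and was not called (log2 fold change -0.13 ± 0.08, 95% interval -0.29 to 0.03).

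In DroshaKD, LAMC1 and LAMC3 were the laminins called by edgeR, both lower, and DESeq2 called 3 laminins lower. LAMB1 was not called by edgeR, but lay below wt, at 108 and 84.4 CPM against 132 and 139 in wt. It was called lower under 7 of 16 alternatives. LAMC1 was at 194 and 156 CPM (log2 fold change -0.78 ± 0.14, adjusted p = 0.0128, edgeR) and LAMC3, a gamma chain of brain and retina, at 37.1 and 38.9 CPM against 50.6 and 50.9 in wt (-0.42 ± 0.09, adjusted p = 0.0272, edgeR). LAMC1 lay above wt in shDicer and shAgo2 and below it in DroshaKD. The LAMC3 call was lost under 11 of 16 alternatives (adjusted p of 0.05298 to 0.196 with any 1 of 4 libraries left out) and that of LAMC1 under 4 of 16 alternatives (adjusted p = 0.0853 without wt replicate 1 and 0.127 without wt replicate 2). LAMB3 and LAMB4 were under 1 CPM in every mRNA-seq sample, were not tested there, and were not called on chromatin.

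**Figure D3:**
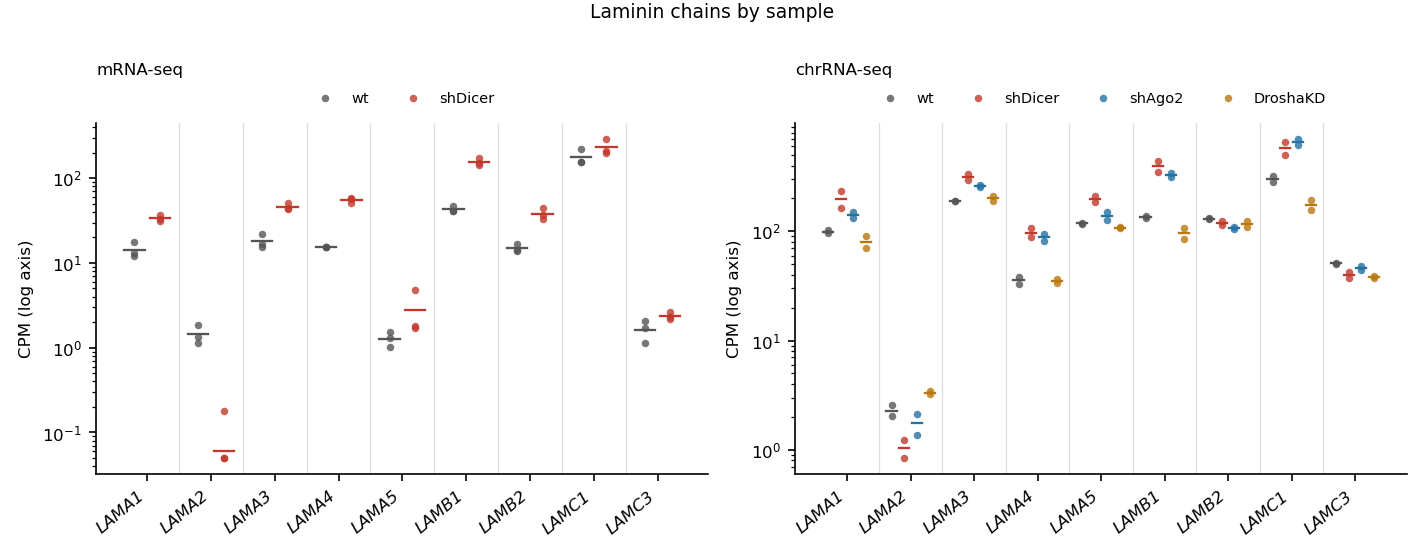
Level of 9 laminin chains in CPM (log axis) in each mRNA-seq sample (left) and chrRNA-seq sample (right), with points for samples and bars for group means; values under 0.05 CPM are drawn at 0.05. LAMB1 and LAMA4 lie higher in shDicer and shAgo2 than in wt and DroshaKD, while LAMA2 lies lower in shDicer in mRNA-seq.

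Of the basement membrane linkers, the nidogens did not pass the test and perlecan was higher on chromatin. NID1 was at 29.4, 26.3 and 41.8 CPM in wt and 28.5, 27.5 and 38.4 in shDicer mRNA-seq (log2 fold change -0.04 ± 0.18, 95% interval -0.39 to 0.31), and at 260.2 and 299 CPM in wt and 219 and 289 in shDicer chromatin. NID2 was not called in any comparison either, with log2 fold changes of 0.26 in mRNA-seq and 0.25, -0.07 and -0.37 in shDicer, shAgo2 and DroshaKD chromatin. HSPG2 was at 62.8 and 56.4 CPM in wt, 144 and 168 in shDicer and 121 and 108 in shAgo2 chromatin (log2 fold changes 1.39 ± 0.10 and 0.94 ± 0.10, both called). The 50 nearest tested genes around HSPG2 had medians of 0.59 and 0.42, and both calls held with that median as an offset. In mRNA-seq HSPG2 was at 0.648, 0.623 and 1.02 CPM in wt and 3.13, 1.36 and 1.85 in shDicer and did not pass the test (log2 fold change 1.47 ± 0.39, adjusted p = 0.008295, edgeR).

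PXDN, the enzyme that crosslinks type IV collagen, fell in shDicer. It was at 17.2, 18.9 and 19.7 CPM in the mRNA-seq wt samples and 0.0784, 0.151 and 0.0596 CPM in shDicer, that is 616 reads over the 3 wt libraries and 4 over the 3 shDicer libraries. The ratio of pooled counts was 198 (95% exact interval 76.8 to 728), and the fitted log2 fold change -7.49 ± 0.26 (adjusted p = 6.25e-09, edgeR). On chromatin PXDN was at 114 and 123 CPM in wt and 5.37 and 4.66 CPM in shDicer (log2 fold change -4.56 ± 0.12, adjusted p = 6.14e-10). In shAgo2 it was at 83.4 and 77.3 CPM (log2 fold change -0.56 ± 0.09, adjusted p = 0.000456), a call lost under 2 of 15 alternatives (adjusted p = 0.00886 without wt replicate 2 and 0.01201 without shAgo2 replicate 2), and in DroshaKD at 112 and 94.7 CPM (log2 fold change -0.198 ± 0.09, not called). PXDN fell further in shDicer than in shAgo2, with a 95% interval of the log2 difference of -4.24 to -3.76 (adjusted p = 4.4e-09, edgeR).

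PXDN lies at chr2:1631887-1744852 on the minus strand, and the 50 nearest tested genes had medians of -0.01 in mRNA-seq and -0.07 in shDicer chromatin. Of the 10 PXDN transcripts with 20 or more estimated counts in a wt chromatin sample, 9 were at or under 10% of their summed wt count in shDicer. The full-length coding transcript PXDN-201 had 1082.2 and 1111.3 estimated counts in the wt chromatin samples and 32.8 and 28.7 in shDicer, and the intron-retaining PXDN-210 272.6 and 270.1 in wt and 7.1 and 10.5 in shDicer. The exception was PXDN-209, a short transcript from within the gene with no coding sequence annotated, at 57.0 and 81.4 counts in wt and 46.9 and 33.6 in shDicer. Its values are estimates by the authors' quantifier and were singled out after they were seen.

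SPARC was the matrix gene with the largest fall in mRNA-seq, from 39.3, 36.2 and 41.7 CPM in wt to 0.0784, 0.151 and 0.0596 CPM in shDicer, or from 1299 reads to 4. The ratio of pooled counts was 417 (95% exact interval 162 to 1532), and the fitted log2 fold change -8.56 ± 0.23 (adjusted p = 8.98e-10, edgeR). On chromatin SPARC was low in wt, at 5.04 and 5.18 CPM, and lower still at 0.368 and 0.265 CPM in shDicer and 0.148 and 0.164 CPM in shAgo2 (log2 fold changes -3.98 ± 0.27 and -4.98 ± 0.31, adjusted p = 5.33e-07 and 2.08e-07, edgeR). In shAgo2, 6 reads over both libraries faced 167 in wt, a ratio of 32.1 (95% exact interval 14.4 to 88.8). DroshaKD, at 3.997 and 3.65 CPM, was not called. Of the SPARC counts in wt mRNA-seq, the transcript SPARC-202, annotated as keeping an intron, held 311.6, 238.7 and 253.3, and the coding transcript SPARC-201 109.2, 114.7 and 102.2. SPARC fell in both knockdown lines, and the difference between them did not pass the test (log2 difference 0.998 ± 0.54, 95% interval -0.05 to 2.05).

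FN1 was at 148 and 166 CPM in wt and 219.7 and 295 CPM in shDicer chromatin (log2 fold change 0.71 ± 0.15, adjusted p = 0.00323), a call lost under 8 of 15 alternatives (adjusted p of 0.0156 to 0.0437 with any 1 of 3 libraries left out). It was not called in mRNA-seq (log2 fold change 0.79 ± 0.18, adjusted p = 0.00329), shAgo2 (log2 fold change 0.45 ± 0.15) or DroshaKD (-0.39 ± 0.16).

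**Figure D4:**
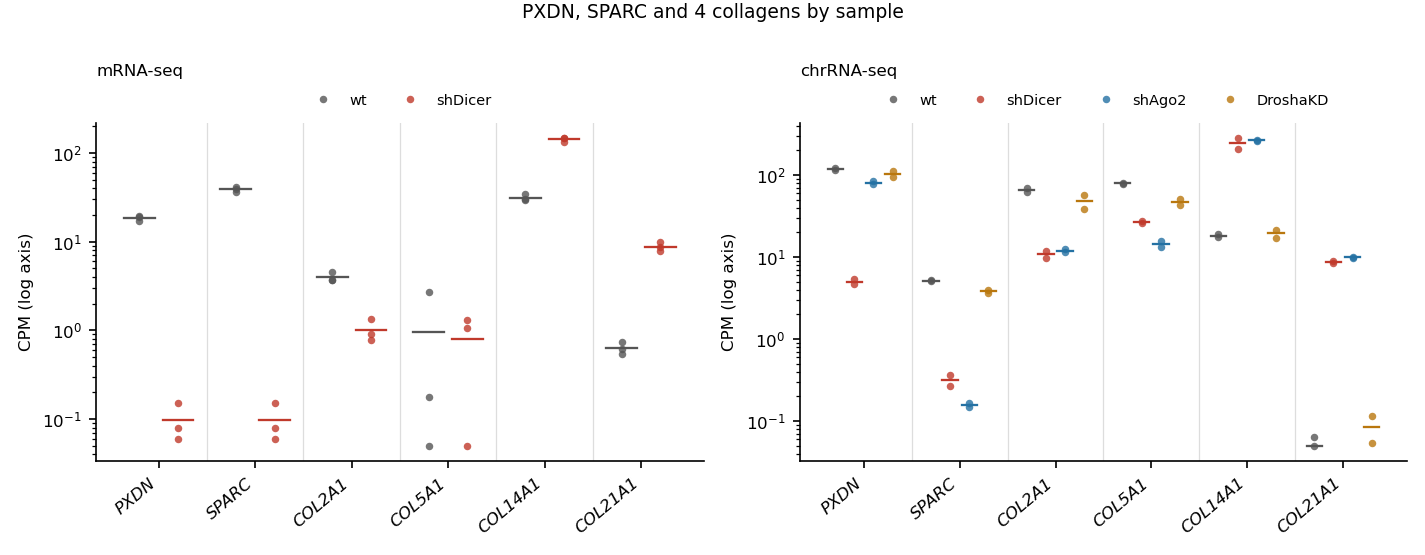
Level of PXDN, SPARC and 4 collagens in CPM (log axis) in each mRNA-seq sample (left) and chrRNA-seq sample (right), with points for samples and bars for group means; values under 0.05 CPM are drawn at 0.05. PXDN is lower in shDicer than in shAgo2, where it is also below wt, SPARC and COL2A1 are low in both, and COL14A1 and COL21A1 are high in both.

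No fibrillar collagen passed the test as higher in shDicer, in mRNA-seq (0 of 5 with an unadjusted p under 0.05) or on chromatin (2 of 9), and DESeq2 called 0 in both. In these comparisons 15.6% and 11.0% of all genes were higher. COL2A1, the chain of cartilage collagen, fell in mRNA-seq from 3.73, 3.65 and 4.61 CPM in wt to 1.33, 0.908 and 0.775 CPM (log2 fold change -1.99 ± 0.28, adjusted p = 0.000112), a call lost under 2 of 16 alternatives (adjusted p = 0.00116 without wt replicate 1). On chromatin it was at 61.7 and 68.7 CPM in wt, 9.74 and 11.97 in shDicer and 11.4 and 12.3 in shAgo2 (log2 fold changes -2.59 ± 0.17 and -2.46 ± 0.17), with both knockdowns below wt, and at 56.8 and 38.6 CPM in DroshaKD (not called). COL11A2, a cartilage chain that joins COL2A1 in its fibres, was under 2 CPM in wt chromatin (0.8301 and 1.71 CPM). It held 2 reads over the shDicer and 3 over the shAgo2 libraries, ratios to wt of 23.1 (95% exact interval 5.99 to 197) and 15.8 (95% exact interval 5.03 to 79.6). These COL11A2 calls were lost under 4 of 15 alternatives (adjusted p of 0.00563 to 0.00768 with any 1 of 3 libraries left out) in shDicer and 5 of 15 alternatives (adjusted p of 0.00851 to 0.0107 with any 1 of 3 libraries left out) in shAgo2.

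COL5A1, the chain that starts type I fibres, and COL27A1, a fibrillar chain of cartilage, fell on chromatin in all 3 knockdowns. COL5A1 was at 80.2 and 77.9 CPM in wt, 25.9 and 27.3 in shDicer, 15.6 and 13.1 in shAgo2 and 50.2 and 43.5 in DroshaKD (log2 fold changes -1.57 ± 0.10, -2.46 ± 0.11 and -0.75 ± 0.09). COL27A1 was at 180.1 and 168 CPM in wt, 92.6 and 87.3 in shDicer, 55.1 and 53.5 in shAgo2 and 101 and 124 in DroshaKD (-0.95 ± 0.10, -1.68 ± 0.10 and -0.62 ± 0.10). For both genes the groups did not overlap and shAgo2 was lowest. Neither was called in mRNA-seq, where COL5A1 held under 3 CPM in every sample and COL27A1 was at 4.296, 4.63 and 4.401 CPM in wt and 6.03, 3.103 and 5.36 in shDicer. The DroshaKD calls were lost under 2 of 16 alternatives (adjusted p = 0.0549 without wt replicate 1) for COL5A1 and 3 of 16 alternatives (adjusted p = 0.102 without wt replicate 1 and 0.0603 without wt replicate 2) for COL27A1.

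COL5A2, the partner chain of COL5A1, fell in mRNA-seq from 10.2, 8.81 and 10.03 CPM in wt to 5.17, 4.09 and 3.398 CPM in shDicer (log2 fold change -1.21 ± 0.18, adjusted p = 0.000208). On chromatin it was at 1.84 and 2.65 CPM in wt and 3.37 and 5.03 CPM in shDicer (log2 fold change 0.91 ± 0.28, adjusted p = 0.0226, edgeR), so that every shDicer sample was below wt in one assay and above it in the other. The mRNA-seq call was lost under 6 of 16 alternatives (adjusted p of 0.001204 to 0.00331 with any 1 of 3 libraries left out). COL1A1, the main chain of bone and skin collagen, was called higher in shAgo2 alone (19.8 and 17.2 CPM in wt, 26.2 and 29.3 in shAgo2, log2 fold change 0.58 ± 0.12, adjusted p = 0.00192), and that call was lost under 7 of 15 alternatives (adjusted p of 0.00689 to 0.0325 with any 1 of 4 libraries left out). COL1A2 was not called, with log2 fold changes of 0.195 in shDicer and 0.34 in shAgo2 chromatin, nor was COL5A3, which was under 1 CPM throughout. COL3A1 and COL11A1 were too low to be tested: COL3A1 was at 0.648, 0.889 and 1.02 CPM in wt and 0 in the 3 shDicer mRNA-seq samples, and COL11A1 was at or under 0.0571 CPM in all 14 libraries.

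Among FACIT collagens, 3 of the 5 tested rose in shDicer mRNA-seq, 5 of 9 rose in shDicer chromatin and 4 of 9 in shAgo2 chromatin, and none of those tested passed the test as lower (0, 0 and 1 with an unadjusted p under 0.05, 0 by DESeq2). Over all genes tested, 15.6%, 11.0% and 12.5% were higher and 14.2%, 10.5% and 12.1% lower in these comparisons. COL14A1, a fibre-associated chain of skin and tendon, was at 29.9, 29.6 and 34.3 CPM in wt and 134, 146 and 147 CPM in shDicer mRNA-seq (log2 fold change 2.19 ± 0.09, adjusted p = 1.54e-08). On chromatin it was at 17.3 and 19.1 CPM in wt, 209 and 281 in shDicer and 266 and 261 in shAgo2 (log2 fold changes 3.75 ± 0.15 and 3.86 ± 0.15), and at 21.5 and 17.1 CPM in DroshaKD, which overlapped wt. COL21A1 was at 0.7295, 0.534 and 0.614 CPM in wt and 9.79, 7.87 and 8.703 CPM in shDicer mRNA-seq (log2 fold change 3.78 ± 0.23, adjusted p = 3.07e-07). On wt chromatin 1 read was found over both libraries, against 329 in shDicer and 384 in shAgo2. The ratios of pooled counts were 292 (95% exact interval 52.1 to 11580.0) in shDicer and 333 (95% exact interval 59.4 to 13170.0) in shAgo2, and DroshaKD was at 0.114 and 0.0544 CPM.

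COL12A1, another chain on the surface of type I fibres, was at 0.593 and 0.884 CPM in wt, 6.26 and 7.999 in shDicer and 12.6 and 10.4 in shAgo2 chromatin (log2 fold changes 3.27 ± 0.31 and 3.96 ± 0.29). In mRNA-seq it was at 0.243, 0.801 and 1.02 CPM in wt and 5.01, 1.59 and 6.497 CPM in shDicer and missed the threshold (log2 fold change 2.71 ± 0.56, adjusted p = 0.001803). The COL12A1 call in shDicer chromatin was lost under 1 of 15 alternatives. In mRNA-seq COL12A1 was called under 6 of 16, 1 of them the looser threshold of 0.05. COL19A1, a minor chain of basement membrane zones, rose in mRNA-seq from 1.46, 1.69 and 1.64 to 4.86, 4.62 and 7.03 CPM (log2 fold change 1.79 ± 0.24, adjusted p = 9.64e-05), a call lost under 2 of 16 alternatives (adjusted p = 0.00134 without wt replicate 1). On chromatin COL19A1 went from 14.6 and 12.6 CPM to 26.8 and 31.5 in shDicer and 34.5 and 34.7 in shAgo2 (1.097 ± 0.11 and 1.34 ± 0.11). COL20A1 was called in shDicer chromatin only (2.85 and 1.83 CPM in wt, 5.999 and 4.66 in shDicer, log2 fold change 1.18 ± 0.23, adjusted p = 0.00163), and the call was lost under 5 of 15 alternatives (adjusted p = 0.0239 without wt replicate 2 and 0.0131 without shDicer replicate 1). In DroshaKD no FACIT chain was called by edgeR or DESeq2, and 3 of 9 had an unadjusted p under 0.05, all higher.

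Of the type VI chains, which form beaded filaments, COL6A1 differed between the knockdown lines. It was at 138 and 141 CPM in wt, 117 and 138 in shDicer and 48.1 and 40.3 in shAgo2 chromatin (log2 fold changes -0.13 ± 0.12 and -1.66 ± 0.13), so that of these groups shAgo2 alone lay apart from wt. COL6A2 was at 49.6 and 49.4 CPM in wt, 37.8 and 43.4 in shDicer and 29.3 and 23.2 in shAgo2 (-0.28 ± 0.11 and -0.91 ± 0.11). DroshaKD also lay below wt, at 116 and 89.1 CPM for COL6A1 and 39.9 and 36.04 CPM for COL6A2. Neither was called there by edgeR, but COL6A1 was called lower under 4 of 16 alternatives and COL6A2 under 3 of 16. Both genes lie on chromosome 21, where the 50 nearest tested genes had a median of -0.76 in shAgo2, and with that median as an offset the COL6A1 call held and the COL6A2 call was lost. COL6A6 was lower in shDicer and shAgo2 (14.3 and 16.4 CPM in wt, 8.84 and 10.01 in shDicer, 10.5 and 10.97 in shAgo2), calls lost under 4 of 15 alternatives (adjusted p = 0.0135 without wt replicate 2 and 0.00778 without shDicer replicate 1) in shDicer and 12 of 15 alternatives (adjusted p of 0.00983 to 0.0579 with any 1 of 4 libraries left out) in shAgo2. In DroshaKD, COL6A6 was not called and lay above wt, at 20.4 and 18.1 CPM. COL6A3 was not called in any comparison.

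Of the remaining collagens, COL25A1, a transmembrane chain of neurons, rose on chromatin from 47.3 and 46.4 CPM in wt to 102 and 119.9 in shDicer and 110.5 and 108 in shAgo2 (log2 fold changes 1.25 ± 0.11 and 1.22 ± 0.11). In mRNA-seq it was at 9.48, 7.74 and 11.3 CPM in wt and 19.5, 15.4 and 15.7 CPM in shDicer and missed the threshold by little (log2 fold change 0.83 ± 0.16, adjusted p = 0.00119). COL25A1 was called there under 5 of 16 alternatives, 1 of them the looser threshold of 0.05. COL26A1 rose in shDicer chromatin from 3.56 and 3.92 to 7.37 and 8.26 CPM (log2 fold change 1.06 ± 0.16, adjusted p = 0.000204). COL7A1, the chain of the fibrils that anchor skin, was lower in shAgo2 (64.3 and 54.4 CPM in wt, 32.3 and 34.2 in shAgo2, log2 fold change -0.84 ± 0.14, adjusted p = 0.000365), a call lost under 5 of 15 alternatives (adjusted p = 0.00743 without wt replicate 1 and 0.00773 without shAgo2 replicate 1). The 2 matrix genes called higher in DroshaKD, COL13A1 and COL24A1, were named after their values were seen: COL13A1 was at 33.6 and 35.1 CPM against 25.3 and 23.9 in wt (log2 fold change 0.48 ± 0.10, adjusted p = 0.0231) and COL24A1 at 16.96 and 15.2 against 7.06 and 8.97 (log2 fold change 1.01 ± 0.15, adjusted p = 0.00734). The COL13A1 call was lost under 9 of 16 alternatives (adjusted p of 0.0507 to 0.178 with any 1 of 4 libraries left out) and the COL24A1 call under 4 of 16 alternatives (adjusted p = 0.105 without wt replicate 1).

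Setting shDicer directly against shAgo2 on chromatin, 4 of the 58 matrix genes tested were higher and 1 was lower in shDicer (adjusted p under 0.005, with 1.37% and 1.34% of all genes). PXDN was the lower one (above). COL6A1 was higher by a log2 difference of 1.53 ± 0.13 (adjusted p = 4.01e-05), COL5A1 by 0.88 ± 0.11 (adjusted p = 0.000563), COL27A1 by 0.73 ± 0.10 (adjusted p = 0.00103) and LAMA5 by 0.51 ± 0.09 (adjusted p = 0.00454), all by edgeR. Without shAgo2 replicate 2, 1 matrix gene was higher. COL6A1 and PXDN were called under all 15 alternatives, COL5A1 was lost under 3 of 15 alternatives (adjusted p = 0.0159 without shAgo2 replicate 2), COL27A1 under 5 of 15 alternatives (adjusted p of 0.00619 to 0.0252 with any 1 of 3 libraries left out) and LAMA5 under 11 of 15 alternatives (adjusted p of 0.00619 to 0.0793 with any 1 of 4 libraries left out). Among genes that rose in both lines, the log2 differences between shDicer and shAgo2 were not called: COL14A1 by -0.11 ± 0.12, COL4A3 by 0.01 ± 0.10, LAMB1 by 0.27 ± 0.12 and LAMC1 by -0.201 ± 0.14.

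Across the assays, 41 matrix genes were tested in both shDicer comparisons, which share no samples but share the difference in cell line. Of these, 12 were higher in both (COL4A1, COL4A3, COL4A4, COL4A5, COL4A6, LAMA1, LAMA3, LAMA4, LAMB1, COL14A1, COL19A1 and COL21A1) and 3 lower in both (PXDN, SPARC and COL2A1). Over the 14950 genes tested in both, 9.23% were higher in both and 7.66% lower in both. COL4A2 and LAMB2 were called higher, and COL5A2 and LAMA2 lower, in mRNA-seq alone. LAMA2 also lay below wt in shDicer chromatin, at 0.842 and 1.22 CPM against 2.55 and 2.02 in wt. That LAMA2 difference was called under 2 of 15 alternatives. On chromatin alone 7 were higher and 2 lower, and 13 were called in neither, where 6.39%, 10.9% and 52.8% of all genes were. In mRNA-seq alone 6.26% of all genes were higher and 6.52% lower.

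**Figure D5:**
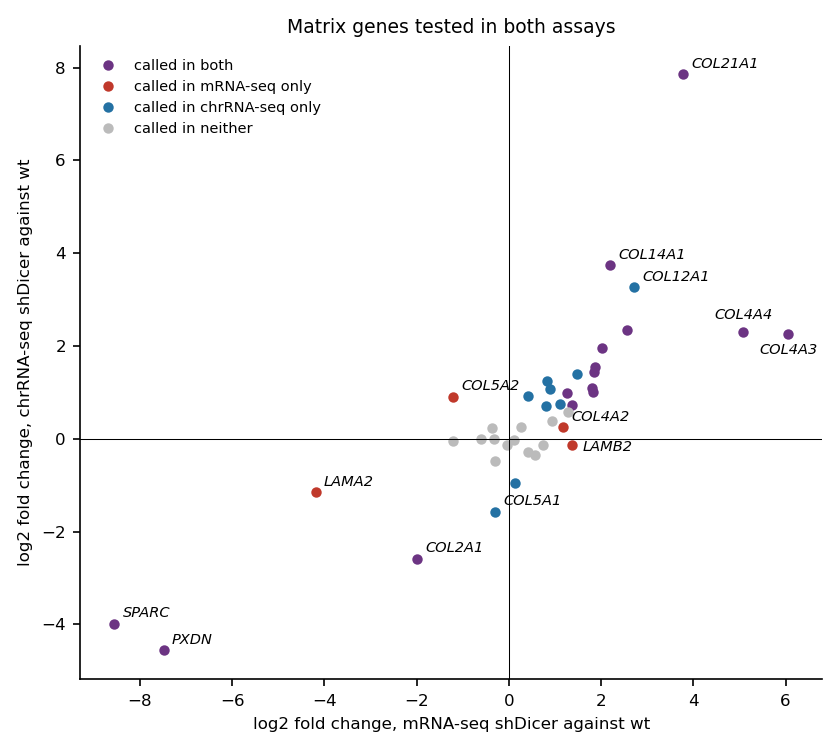
Log2 fold change of shDicer against wt for the 41 matrix genes tested in both assays, in mRNA-seq (x axis) and chrRNA-seq (y axis). Points called in both assays lie in the upper right (12 genes) and the lower left (3 genes).

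The genes that build, bind and cut the matrix were counted in the same fits, as separate lists. The shares of all genes given beside them include non-coding genes. Of 27 collagen processing enzymes tested in mRNA-seq, 8 were higher and 3 lower (median log2 fold change 0.34), beside 15.6% and 14.2% of all genes. On chromatin 7 were higher and 7 lower of 29 in shDicer (all genes 11.0% and 10.5%), 2 and 9 in shAgo2 (12.5% and 12.1%), and 0 and 3 in DroshaKD (1.19% and 2.18%). The lysyl oxidase-like enzymes LOXL4 and LOXL3, which crosslink collagen, went in opposite directions in mRNA-seq: LOXL4 from 0.892, 0.623 and 0.921 to 6.97, 4.54 and 7.15 CPM (log2 fold change 2.93 ± 0.28, adjusted p = 8.66e-06) and LOXL3 from 7.94, 8.27 and 9.21 to 2.66, 2.42 and 2.38 CPM (log2 fold change -1.76 ± 0.17, adjusted p = 8.89e-06). The LOXL3 call was lost under 2 of 16 alternatives. On chromatin LOXL4 was at 40.3 and 38.4 CPM in wt and 29.9 and 30.1 CPM in shDicer, and so lower (log2 fold change -0.39 ± 0.08, adjusted p = 0.00255), a call lost under 12 of 15 alternatives.

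Of 23 matrix receptors tested in mRNA-seq, 9 were higher and 1 lower (15.6% and 14.2% of all genes, median 0.76), and on chromatin 10 were higher and 3 lower of 26 in shDicer (all genes 11.0% and 10.5%), 12 and 3 in shAgo2 (12.5% and 12.1%), and 1 and 1 in DroshaKD (1.19% and 2.18%). DDR2, a receptor kinase for fibrillar collagen, fell from 42.9, 45.99 and 53.2 to 2.51, 1.89 and 2.15 CPM in mRNA-seq (log2 fold change -4.44 ± 0.15, adjusted p = 5.84e-09) and was lower in both chromatin lines (log2 fold changes -1.56 ± 0.14 in shDicer and -2.02 ± 0.14 in shAgo2). SDC1, a heparan sulfate proteoglycan of epithelial cells, rose from 5.59, 5.78 and 7.68 to 46.1, 32.01 and 33.02 CPM (log2 fold change 2.55 ± 0.18, adjusted p = 9.89e-07).

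Among matrix proteases and inhibitors, 12 were tested in mRNA-seq, with 5 higher and 1 lower (15.6% and 14.2% of all genes, median 0.68), and on chromatin 4 were higher and 1 lower of 23 in shDicer (all genes 11.0% and 10.5%), 3 and 4 in shAgo2 (12.5% and 12.1%) and 0 and 0 in DroshaKD (1.19% and 2.18% of all genes, 1 and 2 at an unadjusted p under 0.05, 1 and 0 by DESeq2). MMP16, a membrane-bound metalloprotease, was at 17.3, 18.9 and 20.98 CPM in wt and 0.0784, 0 and 0.179 CPM in shDicer mRNA-seq. MMP24, of the same membrane-bound group, was at 0.243, 0.356 and 0.102 CPM in wt and 1.65, 1.21 and 1.19 CPM in shDicer (log2 fold change 2.44 ± 0.44, adjusted p = 0.000734), a call lost under 11 of 16 alternatives (adjusted p of 0.00211 to 0.00702 with any 1 of 6 libraries left out). On chromatin MMP16 was at 10.8 and 11.9 CPM in wt, 0.632 and 0.742 in shDicer and 0.148 and 0.273 in shAgo2.

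Other matrix glycoproteins and proteoglycans formed the longest list, with 29 tested in mRNA-seq, 12 higher and 2 lower (15.6% and 14.2% of all genes, median 1.13). On chromatin, of 52 tested, 21 were higher and 7 lower in shDicer (all genes 11.0% and 10.5%), 20 and 7 in shAgo2 (12.5% and 12.1%), and 1 and 2 in DroshaKD (1.19% and 2.18%). MFAP2, a component of microfibrils, was at 0, 0 and 0.102 CPM in wt and 17.2, 11.4 and 10.1 CPM in shDicer mRNA-seq, and POSTN, a secreted adhesion protein, at 2.84, 2.94 and 4.71 CPM in wt and 0, 0 and 0.119 CPM in shDicer. On chromatin MFAP2 rose in both lines (log2 fold changes 3.68 ± 0.28 and 3.66 ± 0.28).

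Of 13 TGF-beta ligands, receptors and SMADs tested in mRNA-seq, 5 were higher and 0 lower (15.6% and 14.2% of all genes, median 0.595; 1 lower at an unadjusted p under 0.05, 0 by DESeq2), and on chromatin 5 were higher and 1 lower of 14 in shDicer (all genes 11.0% and 10.5%), 5 and 3 in shAgo2 (12.5% and 12.1%) and 0 and 1 in DroshaKD (1.19% and 2.18%). TGFB3, a ligand of the pathway that raises collagen expression in many cells, rose from 2.59, 2.22 and 3.07 to 7.05, 5.52 and 6.85 CPM in mRNA-seq (log2 fold change 1.31 ± 0.20, adjusted p = 0.000235), and SKI, an inhibitor of SMAD signalling, from 3.81, 4.45 and 4.61 to 10.9, 8.17 and 8.17 CPM (log2 fold change 1.08 ± 0.18, adjusted p = 0.000408). The TGFB3 call was lost under 5 of 16 alternatives (adjusted p of 0.00102 to 0.00251 with any 1 of 3 libraries left out) and the SKI call under 8 of 16 alternatives (adjusted p of 0.00109 to 0.00506 with any 1 of 4 libraries left out).

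Of the 62 matrix genes, 38 were called in at least 1 of the 5 comparisons, or 65.5% of the 58 tested, against 35.2% of the 33014 genes tested in either assay, which include non-coding genes. Another 20 were tested and never called, among them COL1A2, COL5A3, COL6A3, COL8A1, COL8A2, COL9A1, COL9A2, COL9A3, COL10A1, COL15A1, COL16A1, COL17A1, COL18A1, COL23A1, COL28A1, LAMB3, LAMB4, NID1 and NID2. COL3A1, COL6A5, COL11A1 and COL22A1 were too low to be tested. Of those never called, COL18A1, the chain from which endostatin is cut, was at 0.973, 0.534 and 0.614 CPM in wt and 2.82, 1.14 and 1.37 CPM in shDicer mRNA-seq, and at 12.3 and 15.3 CPM in wt and 24.6 and 16.9 CPM in shDicer on chromatin. COL10A1, the chain of hypertrophic cartilage, was near 0 in mRNA-seq (at most 0.0784 CPM) and at 45.7 and 40.9 CPM in wt chromatin, with 37.6 and 42.1 in shDicer. It lies at chr6:116118909-116158747 within NT5DC1, which is read from the opposite strand. Of the sequence of the matrix genes' transcripts, at most 3.41% (COL8A1) was shared with another gene in stretches of 31 bases.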

How the data were processed

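RNA was sequenced from whole cells (mRNA-seq, 6 samples) and from the chromatin fraction (chrRNA-seq, 8 samples). The labels give polyA RNA for mRNA-seq, whereas the study's methods describe ribosomal RNA removal, and 6 small RNA samples were not analysed here. The authors quantified reads with kallisto, keeping strand, against Ensembl coding and non-coding transcripts of hg38, and deposited an estimated count, a TPM value and an effective length per transcript. These expected counts were deposited without normalization, and the deposited TPM values are scaled by effective length.

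Transcript identifiers were matched without their version to GENCODE v44 (193697 of 217082, 89.2%), and counts were summed per gene and rounded. The matrix genes, companion lists and marker lists were chosen with earlier results of these data known. Genes passing filterByExpr were tested in edgeR 4.0.16 (R 4.3.3) by the quasi-likelihood test with TMM factors and group as the sole term, with 1 fit per assay, and p-values were Benjamini-Hochberg adjusted over all genes tested. Intervals of pooled-count ratios are exact and, as the floor of 3 counts, cover counting error only. The steps were tested on simulated data. DESeq2 1.42.0 was 1 of the alternatives.

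Named were the type IV, laminin and main fibrillar chains, the 6 further genes, the remaining collagens called in shDicer or shAgo2 with groups that did not overlap (at most 12) and, per companion list, the 2 called genes with the largest change in mRNA-seq. COL13A1, COL18A1 and COL24A1 were named after their values were seen. COL10A1 lies outside this rule too, as do the markers NEFL and NEFM, which were picked by their values. The values of 1 matrix gene are not reported here.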

Additional observations from a re-analysis of the deposited data

Results flagged for a closer look

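For 4 of the named genes, every shDicer sample lay on one side of wt in mRNA-seq and on the other on chromatin. COL5A2 had a log2 fold change of -1.21 in mRNA-seq and 0.91 on chromatin, LAMB2 one of 1.36 and -0.13, LAMC3 one of 0.56 and -0.34, and LOXL4 one of 2.93 and -0.39. The difference between the assays was not tested. The chromatin values of COL5A2 and LAMB2 and both values of LAMC3 did not pass the test.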

How the results depend on the processing

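No call of a named gene changed direction under any alternative run. In mRNA-seq, 23 matrix genes were higher at adjusted p under 0.05, and 2 were lower with counts scaled from TPM, 3 with protein-coding transcripts only and 3 with unmatched transcripts kept, against 5. With 1 library left out, 12 to 15 were higher and 2 to 5 lower (2 without wt replicate 1, 3 without wt replicate 3 or shDicer replicate 2). On chromatin those ranges were 16 to 20 and 5 to 7 in shDicer, and 14 and 7 to 8 in shAgo2. In DroshaKD (2 higher, 4 lower), there were 4 and 8 without the low-count filter, 0 and 2 with counts scaled from TPM, 1 higher with protein-coding transcripts only, 1 and 2 with unmatched transcripts kept, 7 lower with only these groups fitted, 7 lower in DESeq2, and 0 and 1 at adjusted p under 0.005. With 1 library left out, 0 to 2 were higher and 0 to 9 lower (0 and 0 without wt replicate 1, 1 and 1 without wt replicate 2, 1 and 9 without DroshaKD replicate 1). Between shDicer and shAgo2 (4 higher, 1 lower), 2 were higher with counts scaled from TPM, 2 with protein-coding transcripts only and 1 with unmatched transcripts kept, 7 were higher and 3 lower at adjusted p under 0.05, and with 1 library left out 1 to 3 were higher and 1 lower (2 higher without shDicer replicate 1 or shAgo2 replicate 1, 1 without shAgo2 replicate 2). The cause of these shifts was not tested, except that a changed threshold moves the count by construction. Where a chromatin group was left with 1 sample, that sample was assumed to vary like the other groups.

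Samples that share a replicate number correlated in their deviations from the group means by 0.0711, 0.0482 and 0.122 in mRNA-seq and by -0.114 to 0.0583 on chromatin, so the numbers were not taken to pair the samples. With the replicate number as a block, 18 matrix genes were higher and 5 lower in mRNA-seq, 19 and 7 in shDicer chromatin, 16 and 9 in shAgo2, 1 and 3 in DroshaKD, and 3 and 1 between shDicer and shAgo2. In mRNA-seq, shDicer 1, shDicer 2 and shDicer 3 each correlated best with the wt sample of the same number. With the DroshaKD numbers crossed in the block, an alternative chosen after seeing the data, 4 were higher and 13 lower. Genes under about 3 counts in a library were not measurable at this depth.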
